A study of Mus musculus with 6 samples.

Results

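The collagen genes are the 44 mouse genes whose symbol is Col, a number, a and a number (*Col1a1* to *Col28a1*), among 55385 genes counted by RNA sequencing. The study deleted the *Wnt6* loop anchor, a stretch of chromosome 1 that takes part in long-range Polycomb contacts, with CRISPR-Cas9 in G4 mESCs, a mouse embryonic stem cell line of F1 hybrid background. Polyadenylated RNA was sequenced from wild-type cells, from cells with a heterozygous deletion and from cells with a homozygous deletion. The labels give 2 replicate libraries of each genotype, all from mESCs kept with LIF on CD1 feeder cells. Feeder cells are a layer, commonly of embryonic fibroblasts, on which stem cells are grown, and no source used here states that they were removed before lysis. The edited cells came from screened clones, so that a clone and its genotype cannot be told apart. The labels do not say whether replicates are separate cultures, and p-values measure only the spread between these libraries.

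Collagens are proteins of the extracellular matrix in which 3 chains, alike or different, wind into a triple helix. Fibrillar collagens assemble into the cross-linked fibers of connective tissue and are made in quantity by fibroblasts and other mesenchymal cells. Type IV collagen forms the sheet-like network of basement membranes, which lie under epithelia and appear early in the embryo. The remaining collagens decorate fibrils, form beaded filaments or hexagonal networks, anchor epithelia, span the cell membrane, or carry the glycosaminoglycan chains of basement membranes.

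The 6 libraries hold 23813912 to 28964706 counts, and 3 counts correspond to between 0.102 and 0.131 CPM (counts relative to the library total, scaled for its composition). *Wnt6* had 11 and 13 counts in the wild-type libraries, 6 and 4 in the heterozygous deletion and 0 in both homozygous libraries. The 10 pluripotency markers summed to between 2791 and 3236 CPM over the 6 libraries, with *Pou5f1* at 23157 to 28612 counts. The 14 fibroblast markers were present as well and summed to 513 to 1026 CPM, with *Vim* at 4951 to 12719 counts, *Lum* at 2 to 5 and *Fap* at 0 to 5. Chondrocyte markers, which stand for another collagen-rich cell type, summed to 15.6 to 16.6 CPM, and *Cnmd* had between 0 and 3 counts. The endothelial list summed to 57.8 to 73.8 CPM, most of it from *Pecam1* at 41.7 to 60.3 CPM, and *Emcn* was at 0 in 5 libraries and at 1 count in the other. The primitive endoderm list summed to 23.1 and 21.9 CPM in wild-type, 26.9 and 28.0 under heterozygous and 18.0 and 18.7 under homozygous deletion, with *Sox17* at 0 to 9 counts.

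All 44 collagen genes had counts in the wild-type libraries, and 40 reached 10 counts in 2 or more of the 6 libraries and were tested. The 4 below this minimum were *Col4a3* with 5 to 16 counts a library, *Col9a1* with 3 to 8, *Col28a1* with 8 and 5 counts in wild-type, 3 and 4 under heterozygous and 6 and 7 under homozygous deletion, and *Col19a1* with 0 to 4. The collagens together made up 2301 and 2229 CPM in wild-type cells, 1905 and 1778 in the heterozygous deletion and 1563 and 1540 in the homozygous deletion. The 5 most abundant collagens of a library held between 72% and 74.6% of its collagen counts. Levels of different genes were compared as CPM per kilobase of merged exons, which depends on how much sequence the annotation assigns to a gene.

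On this scale the highest wild-type level was that of *Col18a1*, at 82.5 ± 1.4 (SD, n = 2), which encodes a basement membrane collagen that releases endostatin. *Col1a1*, the main chain of type I collagen, followed at 63.5 ± 1.78, and then *Col5a2* at 24.6 ± 0.288 and *Col1a2* at 21.5 ± 0.0469. *Col4a1* at 19.9 ± 0.562 and *Col5a1* at 19.3 ± 0.925 did not differ beyond their spread. *Col4a2* was at 13.4 ± 0.206 and *Col7a1*, the anchoring fibril collagen of skin, at 5.84 ± 0.884. The other 36 genes were each at 3.68 or lower. In the homozygous deletion *Col18a1* was again highest, at 84.3 ± 2.51, *Col1a1* was at 26.2 ± 0.178 and *Col4a1* came next at 23.3 ± 0.253.

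**Figure D1:**
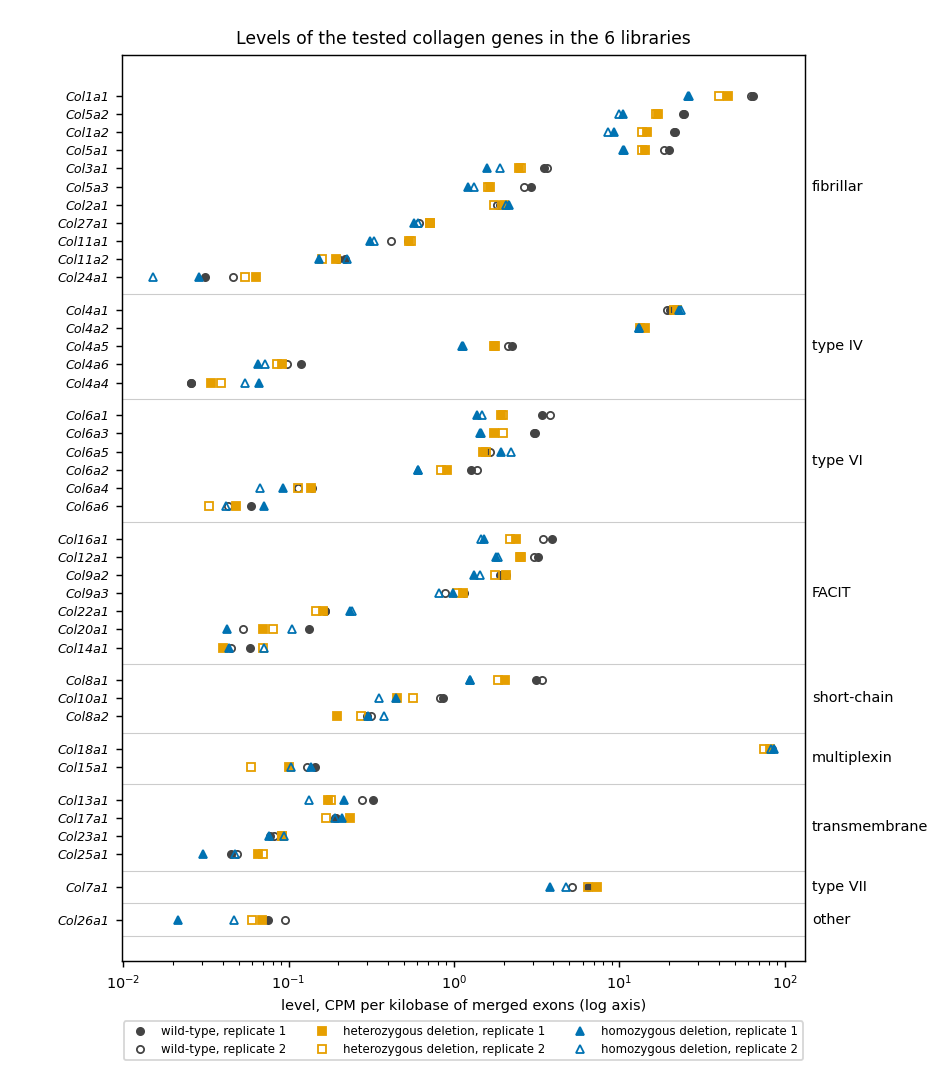
Level of each of the 40 tested collagen genes in each library, as CPM per kilobase of merged exons on a log axis, with genes grouped by structural class. Filled and open symbols are replicates 1 and 2 of a genotype; for Col1a1, Col5a2 and Col1a2 the wild-type, heterozygous and homozygous libraries form 3 separate groups in that order, while for Col18a1 and Col4a2 they lie together.

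To ask how collagen expression differed in the homozygous deletion, all 16951 genes that passed the count minimum were fitted together with edgeR, and calls were read out for the collagens. Of the 40 tested, 11 fell by more than 1 on the log2 scale at an adjusted p below 0.05, and 0 rose past both thresholds. The 11 were 5 of 11 fibrillar collagens, 3 of 6 type VI chains, 2 of 3 short-chain collagens and 1 of 7 tested fibril-associated collagens, and none of the 5 tested type IV chains. Over all tested genes 1.86% were lower and 0.271% higher past both thresholds. By adjusted p alone 17 collagens fell and 2 rose, against 10.5% lower and 10.9% higher over all tested genes. The median log2 change was -0.54 over the 40 collagens and -0.01 over all tested genes. In bulk RNA fewer cells of a type and less RNA per cell cannot be told apart.

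The fibrillar collagens held most of the fall. *Col1a1* and *Col1a2* encode the chains of type I collagen, the main protein of skin, tendon and bone. *Col1a1* was at 425 and 408 CPM in wild-type cells, 297 and 263 in the heterozygous deletion and 173 and 171 in the homozygous deletion. *Col1a2* was at 267 and 268, then 182 and 170, and then 115 and 106 CPM. In both genes the 3 genotypes did not overlap, and the homozygous level was 2.42-fold lower than wild-type (*Col1a1* log2 change -1.27, SE 0.0513, adjusted p = 5.95e-13; *Col1a2* -1.28, SE 0.0483, adjusted p = 3.34e-13; edgeR). The ratio of *Col1a1* to *Col1a2* per kilobase was 2.94 ± 0.0889 (SD, n = 2) in wild-type, 3.0 ± 0.126 under heterozygous and 2.95 ± 0.14 under homozygous deletion, so that the difference between genotypes was within the spread of replicates. With 2 libraries against 2 an exact permutation test cannot go below p = 0.333, and the ratios were not tested.

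Type V collagen nucleates type I fibrils and sets their width. *Col5a2* was at 238 and 234 CPM in wild-type, 166 and 159 under heterozygous and 101.5 and 96.2 under homozygous deletion, a homozygous log2 change of -1.25 (SE 0.0456, adjusted p = 2.25e-13, edgeR). *Col5a1* was at 170 and 158, then 122 and 116, and then 91.3 and 89.2 CPM. It fell by less, by 0.86 (SE 0.0483, adjusted p = 1.09e-10, edgeR). The ratio of *Col5a1* to *Col5a2* per kilobase was 0.806 and 0.766 in wild-type, 0.829 and 0.823 under heterozygous and 1.02 and 1.05 under homozygous deletion. Unlike the type I chains, the type V chains thus had a ratio in the homozygous libraries above that in each of the other 4. *Col5a3*, the third type V chain, was at 19.9 and 18.0 CPM in wild-type, 11.3 and 11.0 under heterozygous and 8.30 and 9.03 under homozygous deletion, and fell by 1.13 (SE 0.0935, adjusted p = 2.09e-08, edgeR).

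*Col3a1* encodes type III collagen, which forms fibrils with type I in elastic tissues. It lies beside *Col5a2* on chromosome 1, with 24615 bases between the genes. It was at 34.3 and 36.0 CPM in wild-type, 24.4 and 24.9 under heterozygous and 15.5 and 18.6 under homozygous deletion. The homozygous log2 change was -1.03 (SE 0.0786, adjusted p = 7.55e-09, edgeR), close to the fold threshold. It was -0.99 without wild-type replicate 2 and -0.92 without homozygous replicate 1, under that threshold, with a range of -1.17 to -0.92 over the alternatives and adjusted p of at most 1.32e-06 (edgeR or DESeq2).

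*Col2a1*, the main collagen of cartilage, was at 17.6 and 16.9 CPM in wild-type, 18.5 and 16.2 under heterozygous and 19.9 and 19.1 under homozygous deletion. Its homozygous log2 change of 0.17 (95% interval 0.01 to 0.33) did not pass the test (unadjusted p = 0.0527, adjusted p = 0.159, edgeR). *Col11a1* was at 6.74 and 5.29, then 6.83 and 7.03, and then 3.93 and 4.19 CPM, and fell by 0.57 (SE 0.144, adjusted p = 0.00685, edgeR). This call was lost without wild-type replicate 1 (-0.38, adjusted p = 0.188, edgeR) and with DESeq2 (-0.56, adjusted p = 0.0531). *Col27a1*, *Col11a2* and the low *Col24a1*, at 3 to 12 counts a library, had homozygous log2 changes of -0.18, -0.14 and -0.82 and did not pass the test. *Col24a1* passed the count minimum only through the heterozygous libraries, at 12 and 11 counts. Over the 11 fibrillar genes, *Col24a1* among them, the median log2 change was -0.86.

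The fibrillar fall went together with that of the fibroblast markers. The fibrillar genes summed to 1188 and 1154 CPM in wild-type, 839 and 779 under heterozygous and 537 and 524 under homozygous deletion. The 14 fibroblast markers summed to 1003 and 1026, then 750 and 734, and then 523 and 513 CPM. Most of the wild-type sum came from *Vim*, *Fbln2* and *Fstl1*, at means of 436, 310 and 176 CPM. Of the 12 fibroblast markers tested, 9 fell past both thresholds in the homozygous deletion, where 1.86% of all tested genes did, with a median log2 change of -1.08. The others were *Fstl1* at -0.47 (adjusted p = 1.9e-07), *Dcn* at -0.98 (adjusted p = 0.0213) and *Twist2* at -0.95, which did not pass the test (adjusted p = 0.0761, edgeR). *Thy1*, a surface protein of fibroblasts, fell by 1.40, *Pdgfrb*, a growth factor receptor, by 1.30, *Prrx1*, a mesenchymal transcription factor, by 1.29, and the matrix genes *Fbln2* and *Fbln5* by 1.18 and 1.13, past both thresholds in all 16 settings tried. *Postn*, *Pdgfra*, *Mfap5* and *Vim* fell by at most 1.09, and each went under a threshold without 1 library, at -0.77 (adjusted p = 0.148) for *Postn* without wild-type replicate 1, -0.88 for *Pdgfra* and -0.99 for *Vim* without wild-type replicate 2 and -0.90 for *Mfap5* without homozygous replicate 2 (edgeR). The pluripotency list summed to 3028 and 3112, then 2807 and 2791, and then 3236 and 3057 CPM, with a median of 0.03 in the homozygous deletion. The part of the fibroblast markers in the collagen result was not tested.

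**Figure D2:**
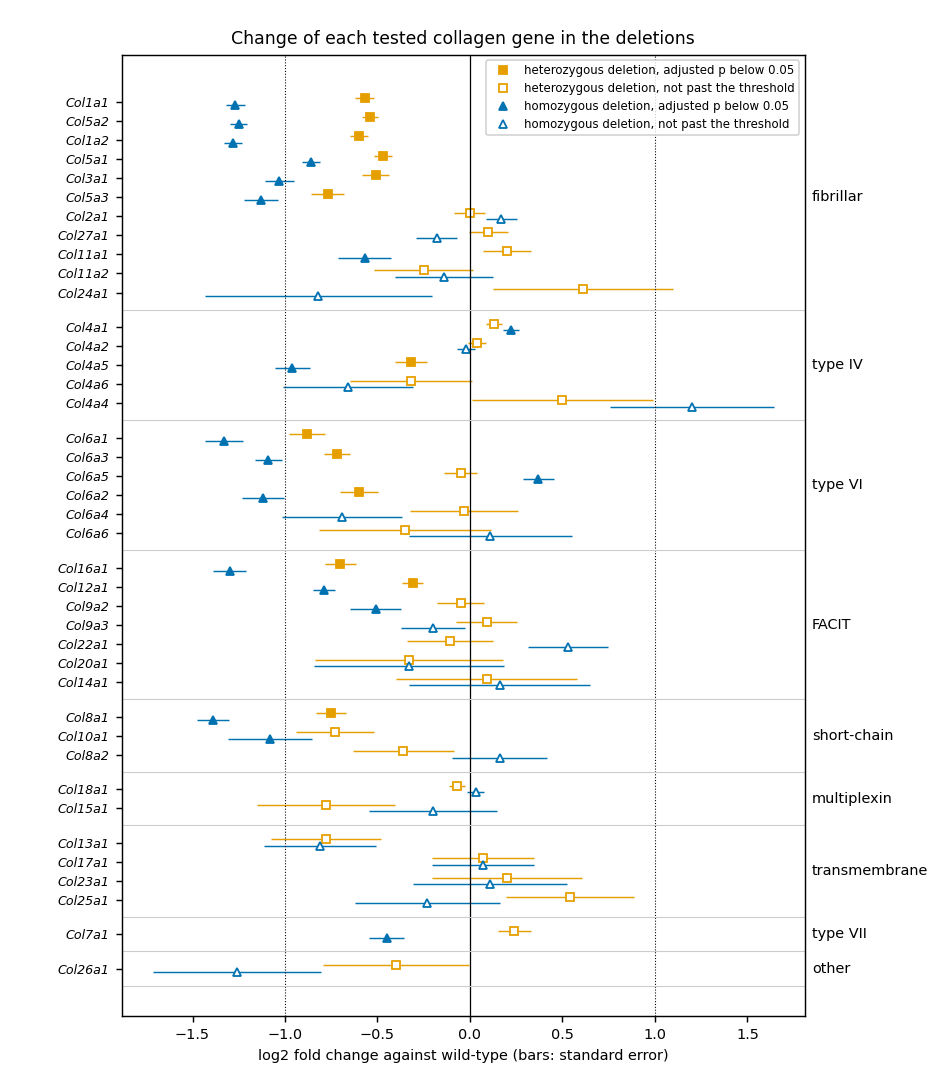
Fitted log2 fold change of each tested collagen gene against wild-type, with its standard error, for the heterozygous (squares) and homozygous (triangles) deletions. Filled symbols passed an adjusted p of 0.05 and dotted lines mark a log2 change of 1 in either direction; 11 homozygous points are filled and lie left of -1, and 0 heterozygous points do. Both deletions share the wild-type libraries.

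The basement membrane collagens did not move as a group. *Col4a1* and *Col4a2* encode the chains of the most widespread type IV network. They lie head to head on chromosome 8 of GRCm38 (*Col4a1* on the minus strand at 11198423 to 11312826, *Col4a2* on the plus strand at 11312805 to 11449287), and their annotated first exons overlap by 22 bases on opposite strands. *Col4a1* was at 152 and 146 CPM in wild-type, 166 and 161 under heterozygous and 172 and 175 under homozygous deletion, and rose in the homozygous deletion by 0.22 (SE 0.0438, adjusted p = 0.000882, edgeR). *Col4a2* was at 89.7 and 87.7, then 94.3 and 87.9, and then 87.2 and 87.3 CPM, with a homozygous log2 change of -0.02 (95% interval -0.12 to 0.07, adjusted p = 0.788, edgeR). The ratio of *Col4a1* to *Col4a2* per kilobase was 1.5 and 1.48 in wild-type, 1.56 and 1.62 under heterozygous and 1.75 and 1.78 under homozygous deletion, without overlap between genotypes. Genes of chromosome 8 stood apart in the homozygous libraries as a whole. The median log2 change over its 890 tested genes was 0.39 in the homozygous deletion, -0.12 in the heterozygous one and 0.51 between them, while the medians of the other chromosomes that carry collagens lay between -0.05 and 0.03. The homozygous values of *Col4a1* (0.22) and *Col4a2* (-0.02) both lie below the median of their chromosome. The number of copies of chromosome 8 in the clones is not known from these counts, and the part of this shift in the *Col4a1* and *Col4a2* values, and so in the type IV sum, share and ratios, was not tested.

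*Col4a5*, a type IV chain of the kidney filter, lies on chromosome X beside *Col4a6* and was the type IV chain that fell. It was at 15.1 and 14.3 CPM in wild-type, 11.7 and 11.9 under heterozygous and 7.51 and 7.61 under homozygous deletion, a homozygous log2 change of -0.96 (SE 0.0952, adjusted p = 2.62e-07, edgeR). Its neighbor *Col4a6* had 12 to 28 counts a library and a log2 change of -0.66 (adjusted p = 0.204, edgeR). *Col4a4* had 8 and 7 counts in wild-type, 9 and 11 under heterozygous and 16 and 15 under homozygous deletion, with a log2 change of 1.2 and a 95% interval of 0.33 to 2.07 (adjusted p = 0.06, edgeR). *Col4a4* passed the count minimum only through deletion libraries, as its wild-type counts were under it. The choice of *Col4a4* for the test thus depended on the libraries in which it was higher. Its head-to-head partner *Col4a3* was under the count minimum. The type IV genes summed to 258 and 249 CPM in wild-type, 273 and 262 under heterozygous and 269 and 271 under homozygous deletion, and their median log2 change in the homozygous deletion was -0.02 over 5 tested genes.

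The mixture of collagen RNA differed between genotypes. Fibrillar genes held 51.7% and 51.8% of the collagen counts in wild-type, 44.0% and 43.8% under heterozygous and 34.4% and 34.0% under homozygous deletion. Type IV genes held 11.2% in both wild-type libraries, then 14.4% and 14.8%, and then 17.2% and 17.6%. The share of the multiplexins, nearly all *Col18a1*, was 25.5% and 25.7%, then 30.1% and 29.7%, and then 38.7% and 37.7%. The ratio of *Col1a1* to *Col4a1* per kilobase was 3.18 in both wild-type libraries, 2.04 and 1.86 under heterozygous and 1.14 and 1.11 under homozygous deletion. The spread between replicates in each of these measures was smaller than the gap between genotypes.

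**Figure D3:**
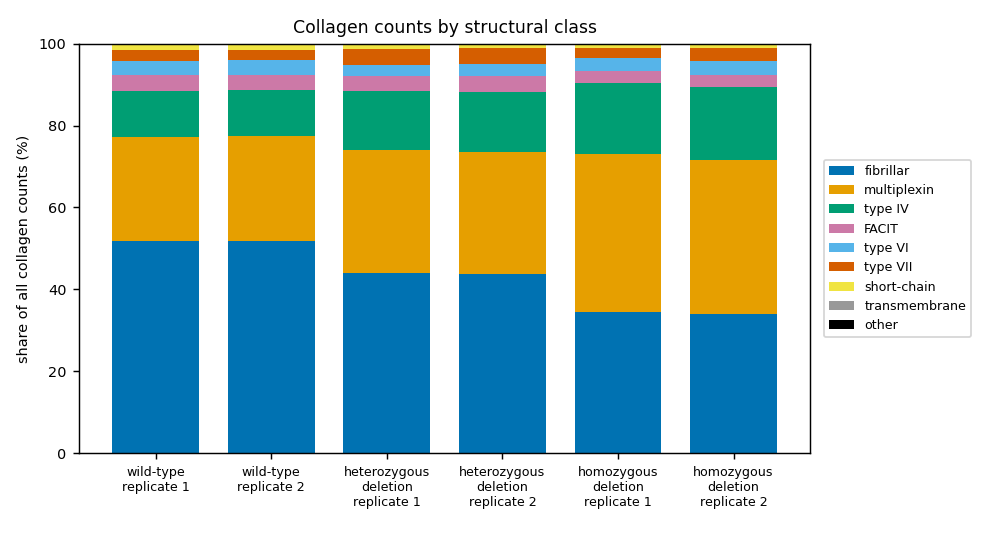
Share of all collagen counts held by each structural class in the 6 libraries, in percent, as stacked bars. The fibrillar share is 51.7% and 51.8% in wild-type libraries against 34.4% and 34.0% with the homozygous deletion, and the multiplexin and type IV shares are correspondingly larger.

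Type VI collagen forms beaded filaments around cells. Its classical chains are encoded by *Col6a1*, *Col6a2* and *Col6a3*, and all 3 fell past both thresholds in the homozygous deletion. *Col6a1* was at 15.0 and 16.6 CPM in wild-type, 8.4 and 8.72 under heterozygous and 6.03 and 6.46 under homozygous deletion, a fall of 1.33 on the log2 scale (SE 0.102, adjusted p = 8.36e-09, edgeR). *Col6a3* was at 36.8 and 37.0, then 20.9 and 23.7, and then 17.3 and 17.4 CPM, and fell by 1.09. *Col6a2* was at 10.6 and 11.5, then 7.56 and 6.95, and then 5.02 and 5.07 CPM, and fell by 1.12. In each of them every heterozygous library lay between the wild-type and the homozygous libraries. *Col6a5*, an alternative chain, was at 14.6 and 15.5 CPM in wild-type, 14.2 and 14.8 under heterozygous and 18.1 and 20.7 under homozygous deletion, and rose by 0.37 (SE 0.0857, adjusted p = 0.00388, edgeR), a call that was lost without wild-type replicate 1 (0.32, adjusted p = 0.0691) or homozygous replicate 2 (0.27, adjusted p = 0.0593). *Col6a4*, at 15 to 35 counts, and *Col6a6*, at 8 to 16 counts, had log2 changes of -0.69 (95% interval -1.33 to -0.05) and 0.11 and did not pass the test.

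The fibril-associated collagens with interrupted helices (FACIT) bind the surface of fibrils. *Col16a1* was at 26.5 and 23.2 CPM in wild-type, 16.1 and 14.7 under heterozygous and 10.3 and 9.84 under homozygous deletion, and fell by 1.30 (SE 0.0911, adjusted p = 2.67e-09, edgeR). *Col12a1*, found on type I fibrils, was at 49.1 and 46.5, then 38.2 and 38.9, and then 27.5 and 27.9 CPM, and fell by 0.79 (SE 0.0608, adjusted p = 9.23e-09, edgeR). *Col9a2*, a chain of the cartilage collagen IX, was at 5.86 and 6.42 CPM in wild-type and 4.10 and 4.46 in homozygous cells and fell by 0.51. That call was lost with DESeq2 (adjusted p = 0.0846) and, in edgeR, without wild-type replicate 2 (-0.44, adjusted p = 0.102). *Col9a3*, *Col14a1*, *Col20a1* and *Col22a1* had homozygous log2 changes between -0.33 and 0.53 and did not pass the test.

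The short-chain collagens form open networks. *Col8a1*, made by vascular and corneal cells among others, had the largest fall of any tested collagen past both thresholds. It was at 24.7 and 26.8 CPM in wild-type, 16.0 and 14.5 under heterozygous and 9.83 and 9.80 under homozygous deletion, a log2 change of -1.39 (SE 0.0872, adjusted p = 5.71e-10, edgeR) or 2.62-fold lower. *Col10a1*, the collagen of hypertrophic cartilage, had 79 and 66 counts in wild-type, 35 and 47 under heterozygous and 32 and 29 under homozygous deletion, and fell by 1.08 (SE 0.227, adjusted p = 0.00163, edgeR). It was -0.92 without homozygous replicate 2, under the fold threshold, and ranged from -1.24 to -0.92 over the alternatives. *Col8a2*, the partner chain of *Col8a1*, was at 1.33 and 1.41, then 0.884 and 1.24, and then 1.35 and 1.69 CPM. Its wild-type and homozygous libraries overlapped, and both heterozygous libraries lay below them, but its log2 changes (-0.36 heterozygous and 0.16 homozygous) did not pass the test (adjusted p = 0.581 and 0.715, edgeR).

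Among the other classes, *Col18a1* was at 586 and 572 CPM in wild-type, 573 and 527 under heterozygous and 605 and 580 under homozygous deletion. With 13844 to 17214 counts a library its homozygous log2 change was 0.03 with a 95% interval of -0.06 to 0.12 (adjusted p = 0.673, edgeR), an interval that holds no change of 0.5 in either direction. *Col15a1*, the other multiplexin, had 27 and 21 counts in wild-type, 16 and 10 under heterozygous and 20 and 17 under homozygous deletion, with log2 changes of -0.78 and -0.20 that did not pass the test (adjusted p = 0.302 and 0.738, edgeR). *Col7a1* was at 66.5 and 53.7 CPM in wild-type, 75.8 and 66.5 under heterozygous and 39.0 and 48.8 under homozygous deletion, and fell by 0.45 (SE 0.0947, adjusted p = 0.0016, edgeR). Its replicates differed more than those of the other abundant collagens, and the call was lost with DESeq2 (adjusted p = 0.101), with robust estimation (0.201) and without wild-type replicate 1, where the log2 change was -0.28 (adjusted p = 0.0778, edgeR).

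The transmembrane collagens were all low. *Col13a1*, found at the neuromuscular junction, had 44 and 33 counts in wild-type, 20 and 22 under heterozygous and 23 and 16 under homozygous deletion, with log2 changes of -0.78 and -0.81 that did not pass the test (adjusted p = 0.169 and 0.0654, edgeR). Its homozygous value passed in edgeR with library totals alone (-0.86, adjusted p = 0.0492) and with every gene that had any count (-0.81, adjusted p = 0.0376). Without homozygous replicate 1 it was -1.18. *Col17a1*, a component of hemidesmosomes, had 34 and 29 counts in wild-type, 35 and 27 under heterozygous and 29 and 30 under homozygous deletion, with overlapping genotypes and a homozygous log2 change of 0.07. *Col23a1* and *Col25a1* had 9 to 24 counts and homozygous log2 changes of 0.11 and -0.23. *Col26a1* had 18 and 20 counts in wild-type, 14 and 13 under heterozygous and 4 and 10 under homozygous deletion, and its log2 change of -1.26 did not pass the test (adjusted p = 0.054, edgeR). It passed both thresholds in edgeR with library totals alone (-1.32, adjusted p = 0.0463), with every gene that had any count (-1.27, adjusted p = 0.0305) and with robust estimation (-1.26, adjusted p = 0.0499). Without homozygous replicate 2, the library with 10 counts, it was -1.96. At such counts the fitted changes were imprecise, with a 95% interval of -2.16 to -0.37 for *Col26a1* and of -0.71 to 0.92 for *Col23a1*.

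In the heterozygous deletion 0 of the 40 tested collagens were past both thresholds in either direction with edgeR or with DESeq2, against 0.124% of all tested genes lower and 0.0413% higher. By adjusted p alone 13 fell and 0 rose, where all tested genes had 2.91% lower and 2.23% higher. At an unadjusted p below 0.05 the numbers were 16 lower and 2 higher. The share of all tested genes at that unadjusted p was not computed, so these numbers have no background beside them. The median log2 change was -0.31 over the collagens and 0 over all tested genes. The heterozygous and homozygous comparisons share the wild-type libraries, so that their values are not independent of each other.

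The fibrillar genes again held the largest part, with 6 of 11 lower and a median of -0.47. *Col1a1* fell by 0.57 (SE 0.0499, adjusted p = 4.35e-07, edgeR), *Col1a2* by 0.60, *Col5a2* by 0.54, *Col5a1* by 0.47 and *Col3a1* by 0.51. *Col5a3* fell by 0.77 (SE 0.0888, adjusted p = 1.35e-05, edgeR). Of the type VI genes *Col6a1* fell by 0.88, the largest fall in this comparison, *Col6a3* by 0.72 and *Col6a2* by 0.60. *Col16a1* fell by 0.70, *Col12a1* by 0.31 and *Col8a1* by 0.75. The *Col12a1* call was lost without wild-type replicate 1 (-0.27, adjusted p = 0.0719, edgeR). *Col10a1* had a log2 change of -0.73 and missed the threshold (adjusted p = 0.054, edgeR), which it passed without either homozygous library (adjusted p = 0.0219 and 0.0215, edgeR). Of the type IV chains *Col4a5* fell by 0.32 (SE 0.0873, adjusted p = 0.0353, edgeR), and this call was lost in DESeq2 (adjusted p = 0.257), with library totals alone (0.0502) and without any single wild-type or heterozygous library, where the log2 change was between -0.36 and -0.28. *Col4a1* and *Col4a2* had log2 changes of 0.13 and 0.04, with 95% intervals of 0.05 to 0.22 and -0.06 to 0.13. *Col4a1* missed the threshold (adjusted p = 0.0935, edgeR) and passed it without either homozygous library (0.0495 and 0.0491). *Col7a1*, at 0.24 (adjusted p = 0.159, edgeR), passed it without wild-type replicate 1 (0.41, adjusted p = 0.0341) and without either homozygous library (adjusted p = 0.0163 and 0.017). Of the 12 tested fibroblast markers 7 fell, where 2.91% of all tested genes did, with a median of -0.41, and their part in the collagen result was not tested. Of the 10 pluripotency markers 6 fell, against the same 2.91%, with a median of -0.19. Among these 6, *Klf2* (-0.32) and *Zfp42* (-0.31) lie on chromosome 8, whose heterozygous median was -0.12, and the others lie on other chromosomes. The 6 tested primitive endoderm markers had a median of 0.58, and 1 of them rose by adjusted p, where 2.23% of all tested genes did. It was *Cubn*, a receptor of visceral endoderm, at 59 and 44 wild-type counts and 113 and 122 under heterozygous deletion. *Cubn* rose by 1.28 (adjusted p = 9.3e-05, edgeR), past both thresholds, as 0.0413% of all tested genes did.

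To test whether the homozygous deletion differed from the heterozygous one, the homozygous and heterozygous libraries were compared directly in the same fit. With edgeR 0 collagens were past both thresholds, and with DESeq2 0 as well, against 0.897% of all tested genes lower and 0.496% higher. By adjusted p alone 16 fell and 2 rose, where the shares of all tested genes were 12.9% lower and 12.9% higher. At an unadjusted p below 0.05 there were 18 lower and 3 higher, again without a computed share of all tested genes. Among the fibrillar genes 7 of 11 were lower in the homozygous cells. *Col5a2* fell by 0.72 (SE 0.0461, adjusted p = 7.69e-10, edgeR), *Col1a1* by 0.70, *Col1a2* by 0.67, *Col3a1* by 0.52, *Col5a1* by 0.40 and *Col5a3* by 0.36. The *Col5a3* call was lost with DESeq2 (adjusted p = 0.08) and without heterozygous replicate 1 (-0.34, adjusted p = 0.0686) or homozygous replicate 1 (-0.30, adjusted p = 0.083). *Col11a1* had the largest fitted difference of the 7, -0.77 (SE 0.142, adjusted p = 0.000435, edgeR), after a heterozygous value of 0.20 that did not pass the test. *Col7a1* also differed, by -0.69 (adjusted p = 1.53e-05, edgeR), a call that was lost with robust estimation (adjusted p = 0.0736).

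Of the other classes, *Col8a1* fell by 0.63, *Col4a5* by 0.64, *Col16a1* by 0.61, *Col12a1* by 0.48, *Col9a2* by 0.47 and the 3 classical type VI chains by 0.36 to 0.52. The *Col9a2* call was lost with DESeq2 (adjusted p = 0.12) and without heterozygous replicate 1 (-0.36, adjusted p = 0.17) or homozygous replicate 1 (-0.41, adjusted p = 0.0796). *Col6a5* rose by 0.42 (SE 0.087, adjusted p = 0.00123, edgeR). *Col22a1*, a collagen of tissue junctions, was at 1.49 and 1.35 CPM under heterozygous and 2.18 and 2.23 under homozygous deletion and rose by 0.64 (adjusted p = 0.041, edgeR), a call that was lost when any 1 library was left out, with values of 0.57 to 0.70 and adjusted p of 0.0549 to 0.195. The differences of *Col4a1* (0.09) and *Col4a2* (-0.06) did not pass the test. *Col18a1*, at 0.11 (adjusted p = 0.0899, edgeR), passed it without heterozygous replicate 1 (0.17, adjusted p = 0.0394) and without homozygous replicate 2 (0.14, adjusted p = 0.0383). Of the 12 tested fibroblast markers 10 fell, with a median of -0.71, and 8 of the 10 pluripotency markers rose, with a median of 0.17. Over all tested genes 12.9% were called in each direction. Of the pluripotency markers that rose, *Zfp42* (0.53) and *Klf2* (0.38) lie on chromosome 8, whose median was 0.51, and the others lie on other chromosomes. The part of the chromosome 8 shift in these values was not tested. Of the 6 tested primitive endoderm markers 3 fell, with a median of -0.50, among them *Cubn* by 1.21 (adjusted p = 3.9e-05, edgeR) and *Gata6*, an endoderm transcription factor, by 1.03 (adjusted p = 0.0302, edgeR). The *Gata6* call was lost without heterozygous replicate 2 (-0.73, adjusted p = 0.272) or homozygous replicate 1 (-0.95, adjusted p = 0.09). The part of these lists in the collagen values was not tested.

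**Figure D4:**
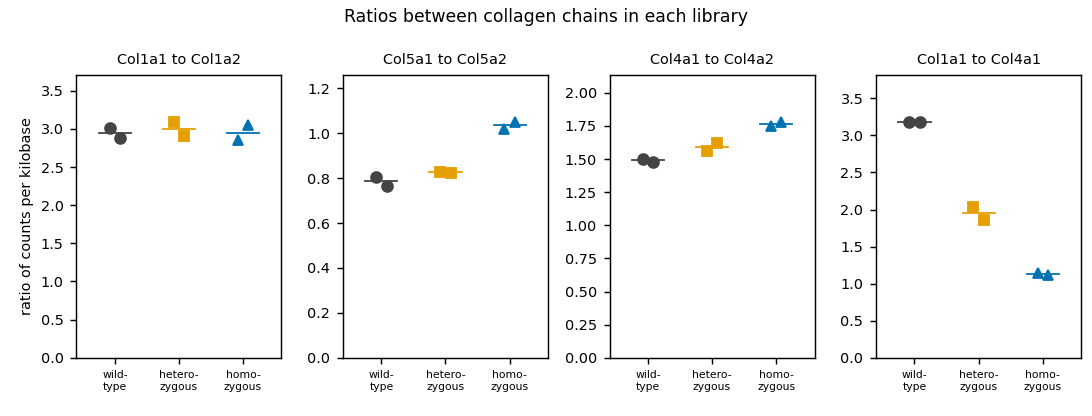
Ratio of 2 collagen chains in each library, as counts per kilobase, for 4 pairs of genes; points are libraries and lines are genotype means, on axes that start at 0. The type I ratio is 2.94, 3.0 and 2.95 in the 3 genotypes, while Col1a1 to Col4a1 goes from 3.18 to 1.95 and 1.13.

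The sequences just upstream of RefSeq starts differed among the genes that fell. RefSeq starts on GRCm38.p6 gave the 250 bases before the start for 35 of the 44 collagens, in 38 windows, and each window was searched on both strands for the TATA box (TATAAA), the CCAAT box and the GC box (GGGCGG). *Col1a1* and *Col5a2*, which fell past both thresholds, had no window. Some windows, such as that of *Col1a2*, lie inside the gene by the GENCODE annotation, and others overlap annotated exons. The GC box was in 22 of the 38 windows (57.9%) and in 32.7% of the 32851 windows of all genes. TATAAA was in 5 (13.2%, against 12.4%) and CCAAT in 13 (34.2%, against 33.8%). These matches are descriptions of the letters in the windows, and no binding was measured. The windows of the fibrillar *Col3a1*, of *Col8a1*, which had the largest fall, and of *Col6a5*, which rose, show the range, each read 5′ to 3′ on the gene's strand and ending at the base before its start, with matches in capitals (CCGCCC is the GC box on the other strand).
*Col3a1*, chr1:45311288-45311537, plus strand: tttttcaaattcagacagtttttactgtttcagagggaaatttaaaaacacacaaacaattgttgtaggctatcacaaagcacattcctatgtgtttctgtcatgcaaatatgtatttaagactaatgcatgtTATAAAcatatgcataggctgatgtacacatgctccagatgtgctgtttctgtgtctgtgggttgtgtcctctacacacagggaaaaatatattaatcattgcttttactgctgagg
*Col8a1*, chr16:57754738-57754987, minus strand: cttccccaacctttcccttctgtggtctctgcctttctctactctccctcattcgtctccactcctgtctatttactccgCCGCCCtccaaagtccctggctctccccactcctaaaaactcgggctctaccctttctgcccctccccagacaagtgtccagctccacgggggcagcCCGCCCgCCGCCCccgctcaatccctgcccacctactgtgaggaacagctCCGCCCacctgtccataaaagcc
*Col6a5*, chr9:105960644-105960893, minus strand: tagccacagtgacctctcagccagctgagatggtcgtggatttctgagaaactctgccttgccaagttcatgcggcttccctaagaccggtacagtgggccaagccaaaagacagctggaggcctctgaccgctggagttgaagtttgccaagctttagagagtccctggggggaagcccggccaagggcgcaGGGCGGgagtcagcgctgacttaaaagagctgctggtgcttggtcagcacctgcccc
The *Col3a1* window is 35.2% G and C, holds no CpG and has 1 TATAAA on the sense strand. The *Col8a1* window is 60.8% G and C, with 10 CpG and 4 GC boxes, all on the other strand. The *Col6a5* window is 58.8% G and C, with 8 CpG and 1 GC box. The windows of *Col3a1* and *Col8a1* share none of the 3 motifs. Of the other genes that fell past both thresholds and had a window, *Col1a2*, *Col5a3*, *Col6a2* and *Col16a1* held a GC box, and *Col6a1*, *Col6a3* and *Col10a1* held none. The part of these motifs in the changes was not tested.

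Genes that act on collagen were read out of the same fit. Collagen chains are hydroxylated and folded in the endoplasmic reticulum, trimmed outside the cell and cross-linked by lysyl oxidases. Of the 32 genes listed for these steps 30 were tested, and 10 fell and 0 rose in the heterozygous deletion by adjusted p alone, where 2.91% of all tested genes fell and 2.23% rose. In the homozygous deletion 14 fell and 1 rose (10.5% and 10.9% of all tested genes), with a median of -0.22. Past both thresholds were *Lox*, the founding lysyl oxidase, *Loxl3*, another of that family, and *P4ha3*, a subunit of prolyl 4-hydroxylase. *Lox* had 7261 and 6468 counts in wild-type, 4189 and 4590 under heterozygous and 2243 and 2488 under homozygous deletion, and fell by 1.37 (adjusted p = 5.16e-14, edgeR). *Loxl3* fell by 1.35 and *P4ha3* by 1.24. *Colgalt1*, which glycosylates collagen, rose by 0.30 (adjusted p = 7.34e-05, edgeR). It lies on chromosome 8, whose median was 0.39, and was at -0.19 in the heterozygous deletion and 0.49 in the direct comparison, where the chromosome was at -0.12 and 0.51. *P4hb*, which serves many other secreted proteins, had the highest level of the list, at 222 CPM per kilobase in wild-type, and a homozygous log2 change of -0.03. Homozygous against heterozygous, 15 of the 30 fell and 4 rose, against 12.9% of all tested genes in each direction.

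Of 7 collagen receptor genes, 3 fell in the heterozygous deletion (2.91% of all tested genes) and 4 in the homozygous one (10.5%) by adjusted p alone, and none rose against wild-type. *Ddr2*, a receptor tyrosine kinase for fibrillar collagen, had 542 and 382 counts in wild-type, 295 and 335 under heterozygous and 152 and 200 under homozygous deletion, and fell by 1.22 (adjusted p = 1.11e-07, edgeR). *Itga11*, an integrin chain of fibroblasts that binds type I collagen, fell by 1.12 (adjusted p = 0.000364, edgeR) and by 0.91 without wild-type replicate 2, under the fold threshold. *Itga2*, the alpha chain of another collagen-binding integrin, fell past both thresholds between heterozygous and homozygous cells, by 1.05 (adjusted p = 0.000203, edgeR). *Itgb1*, the beta chain common to these integrins, had the highest level, at 172.5 CPM per kilobase in wild-type, and a homozygous log2 change of 0.09. It was among the receptors that fell in the heterozygous deletion (-0.16, adjusted p = 0.0237, edgeR) and was at 0.25 in the direct comparison. *Itgb1* lies on chromosome 8, whose medians were 0.39 homozygous, -0.12 heterozygous and 0.51 in the direct comparison. The part of that shift in its values was not tested.

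The 16 basement membrane partners of type IV collagen went both ways. By adjusted p alone 6 fell and 5 rose in the homozygous deletion (10.5% and 10.9% of all tested genes), with a median of -0.08, and 1 fell and 2 rose in the heterozygous deletion (2.91% and 2.23%). *Lama2*, a laminin chain of muscle, fell past both thresholds, by 1.07 (adjusted p = 0.000261, edgeR), from 113 and 99 counts in wild-type to 39 and 51 in homozygous cells, and by 0.98 without homozygous replicate 1, under the fold threshold. *Lamc1*, the laminin chain with the highest level of the list at 40.1 CPM per kilobase, rose by 0.28 (adjusted p = 7.86e-05, edgeR). Homozygous against heterozygous, 5 of the 16 fell and 2 rose, against 12.9% of all tested genes in each direction.

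Of the 44 collagens 13 share exon bases with another annotated gene on either strand, among them 2 of the 11 that fell past both thresholds. *Col3a1* shares 141 bases with *Gm47302*, which had 0 counts in every library, and *Col10a1* shares 18 bases with *Nt5dc1* on the opposite strand, whose homozygous log2 change was 0.06. Among the others, *Col9a3* shares 234 bases, 6.07% of its exons, with *Tcfl5* on the opposite strand, which had 1106 to 1389 counts against 81 to 130 for *Col9a3*, so that the level of *Col9a3* is uncertain. The level of *Col20a1*, at 5 to 20 counts, is uncertain as well. It shares 79 bases, 1.54% of its exons, with *BX649560.1* on the same strand, which had 50 to 102 counts. The log2 change of *BX649560.1* in the direct comparison was -0.71 (adjusted p = 0.00471, edgeR). *Col5a1*, at 2090 to 4979 counts, shares 113 bases with *Gm13372*, which had 3 to 39 counts and a homozygous log2 change of -1.86 (adjusted p = 0.00603, edgeR). The strand setting used in counting is not given in the sources used here.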

How the data were processed

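The deposited values are raw read counts per gene, whole numbers that the authors did not normalize, for 55385 genes in 6 libraries. Per the labels, RNA was polyadenylated and libraries were stranded (KAPA mRNA Hyper Prep). The submitters' processing notes name STAR 2.6.1d, Trimmomatic 0.39, SAMtools 1.9, featureCounts 1.6.4 and DESeq2 1.22.2 with the build GRCm38 (mm10). The annotation release and the strand setting are not given in the sources used here, so that shared exons could be split in a way that cannot be checked.

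From these counts, genes reaching 10 counts in 2 or more libraries were kept (16951), TMM factors were computed and the 6 libraries were fitted in 1 quasi-likelihood model of 3 genotypes with edgeR 4.0.16 (R 4.3.3, limma 3.58.1), after a run of the fit on simulated data. A gene was called where its absolute log2 change exceeded 1 and its p, adjusted by Benjamini-Hochberg over all tested genes, was below 0.05, and counted also at that p alone. Groups and replicate numbers came from the sample labels. The methods state triplicates and the labels give 2 replicates of each genotype, which were used. Libraries of the same genotype varied beyond counting noise (chi-square over its degrees of freedom, 2.31 to 3.54) and were each counted as a replicate.

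Exon lengths and positions came from GENCODE M21 on GRCm38, in which 55144 gene identifiers were found. Floors cover counting error only. The 95% intervals are the log2 change plus or minus 1.96 SE. This normal multiplier makes them narrower than intervals matched to the edgeR test, so an interval can exclude 0 where the unadjusted p is above 0.05. The members and lists were chosen with earlier results of these data known. The rule for named genes was to give values in each library for collagens past both thresholds and for the 2 highest of each class, the rest by range, and to name genes of the 3 pathway lists that were past both thresholds or highest. The marker genes named were chosen after their values were seen. Alternatives were DESeq2 1.42.0, its size factors, library totals alone, 2 other count filters, only the libraries compared, a replicate block, robust estimation, no fold threshold and each library left out. Summaries were made with Python 3.11.15, pandas 2.3.3 and numpy 2.4.6.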

Additional observations from a re-analysis of the deposited data

How the results depend on the processing

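No collagen called in the report changed direction under the alternatives run. The count of 11 collagens lower in the homozygous deletion was 11 to 13 over the other settings that kept the fold threshold and 10 to 11 with 1 library left out. Without the fold threshold it was 17, with 2 higher. The same setting gave 13 lower in the heterozygous deletion, and 16 lower and 2 higher for homozygous against heterozygous cells. Of the 11 genes, 9 stayed past both thresholds in all 16 settings. Of the calls by adjusted p alone, 11 of 13, 15 of 19 and 14 of 18 held in every setting for the heterozygous, homozygous and direct comparisons.

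The fibrillar median in the homozygous deletion was -0.92 with library totals alone, -0.95 with only the libraries compared and -1.05 to -0.85 with 1 library left out. In the direct comparison it was -0.59 with library totals and -0.62 to -0.41 with 1 library left out, and in the heterozygous deletion -0.50 to -0.41. The type IV median rests on 5 genes in the main fit and moved around 0. In the heterozygous deletion it was 0.08 over 6 genes with every gene that had any count. It was -0.14 over 4 genes with only the libraries compared and -0.01 to 0.09 with 1 library left out. In the homozygous deletion it was -0.08 with library totals, 0.09 with every gene that had any count and -0.03 to -0.01 with 1 library left out. In the direct comparison it was -0.13, -0.20 and -0.11 to -0.01 for the same settings. The heterozygous type IV medians over 6 and 4 genes are thus not over the same genes as that of the main fit. The heterozygous fibrillar median likewise rests on 11 genes in the main fit and on 10 without either heterozygous library. What else moved the medians was not tested.

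Same-numbered libraries did not deviate together (correlations of 0.0262, -0.125 and 0.0113 across genes), so that the numbers are not taken as pairs. With the replicate number as a block 11 collagens were lower and 0 higher in the homozygous deletion and 0 were called in the others, and the fibrillar medians were -0.46, -0.86 and -0.53 in the heterozygous, homozygous and direct comparisons. By adjusted p alone the block lost the call of *Col22a1* in the direct comparison (adjusted p = 0.0538, edgeR) and changed that of no other collagen. With the homozygous numbers crossed in the block, an alternative chosen after seeing the data, the counts were also 11 lower and 0 higher. Depth limits the collagens under about 50 counts a library, whose log2 changes carried standard errors of up to 0.615.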
